A study of Mus musculus with 24 samples.

Results

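The comparison described here is the response of visceral fat to a high-fat diet in daughters of vitamin D-sufficient mothers. It sets 3 libraries of HF females against 3 libraries of LF females, out of 24 libraries in the whole study, and covers all genes of the table that holds these 6 libraries. Of 56895 entries in that table, 16563 had 10 or more normalized reads in no fewer than 3 libraries and were tested. The tissue was retroperitoneal white adipose tissue, the fat pad behind the abdominal cavity, taken after an overnight fast. All 6 mice were C57BL/6J by their labels (C57BL/6JRJ in the study's methods) and each had a CTRL mother, that is, one fed AIN-93G with 1.0 IU of vitamin D3 per g before and during gestation. From 6 weeks of age and for 8 weeks, the LF daughters ate AIN-93M and the HF daughters a diet with 45% of its energy from fat. Litter is not given in the labels, each library came from 1 mouse, and the p-values measure the spread between these mice. Mice are named below by the numbers in the file headers: 2124, 2125 and 2335 for LF, and 2290, 2291 and 2292 for HF. Values per mouse are always listed in this order, in normalized reads.

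White adipocytes store triglyceride and release fatty acids between meals. They enlarge when energy is in excess, and larger adipocytes make more leptin, the hormone that reports fat stores to the brain. The cells also take up glucose and fatty acids, build new fatty acids from glucose, and burn a part of both in mitochondria. Adipose tissue further holds fibroblast-like progenitors, blood vessels and macrophages, whose number and type are known to change in obesity. Beige adipocytes, which carry the uncoupling protein UCP1 and dissipate energy as heat, can be scattered in white depots. In whole tissue, fewer cells of a type and less RNA per cell cannot be told apart.

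The libraries held 14095335 to 18484346 reads on genes. The defining white adipocyte gene Adiponectin (Adipoq) was at 68248, 70858 and 79684 in LF and 65835, 86769 and 76652 in HF mice, so white fat was present in every library. Adipoq does not tell fat depots apart, and the depot given in the label was not tested. Other tissues were also seen in single libraries. Ovarian transcripts such as Amh and Zp3 were high in HF 2290 and HF 2292 and low elsewhere. Some granulosa and luteal genes were also raised in LF 2335. Lhcgr was at 1.8, 1.1 and 65.1 in LF and 55.4, 0 and 389 in HF mice. Cyp11a1 was at 231, 77.4 and 644 in LF and 4154, 15.0 and 14044 in HF mice. Amh, made by granulosa cells, was at 2.7, 1.1 and 4.0 in LF and 111.6, 1.1 and 1118 in HF mice. Zp3, an egg coat protein, was at 0 in the LF mice and at 31.5, 0 and 239 in the HF mice. Over 13 granulosa and luteal genes, chosen after the values were seen, the summed level was 794 to 2331 in LF mice and 12772, 748 and 42778 in HF mice, and over 10 oocyte genes it was 12 to 15 in LF and 280, 40 and 1684 in HF mice. Skeletal muscle markers summed to 45890 in LF 2335 and 18084 in HF 2292, and to 108 to 1002 in the other 4 libraries. Brown adipocyte markers were at 8278 and 11423 in LF 2124 and LF 2125, and at 1239 in LF 2335. In HF mice they were at 885, 286 and 228. Of 4 mesothelium markers, 3 rose (Msln, Upk3b and Lrrn4), and their sum was 3592 to 4085 in LF and 6828 to 12945 in HF mice. Of 8 kidney markers, 7 stayed at 15.0 normalized reads or below in every library, and the name of LF 2124 contains the word renal, which no source used here explains. Pairs of mice on the same diet correlated across genes with r of 0.953 to 0.980, and pairs on different diets with r of 0.926 to 0.966. The part of these tissues in the results below was not tested, and the calls or the median of each gene list are also given without HF 2290 and HF 2292.

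**Figure D1:**
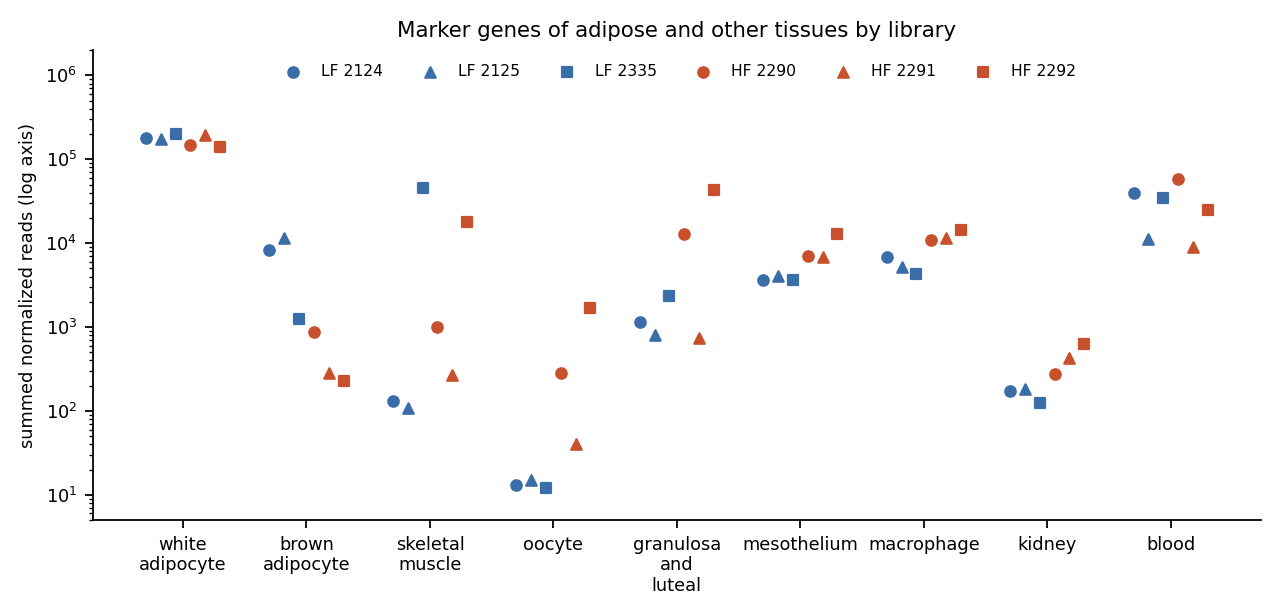
Summed normalized reads of marker genes (y axis, log scale) in the 3 LF (blue) and the 3 HF (orange) females, 1 symbol per mouse and 1 column per tissue or cell type. White adipocyte markers lie between 141455 and 201728 in all 6 mice, whereas granulosa and luteal genes reach 12772 in HF 2290 and 42778 in HF 2292, and skeletal muscle markers 45890 in LF 2335 and 18084 in HF 2292.

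In CTRL LF vs. CTRL HF females, 2101 genes changed, 12.7% of the genes tested. Of these, 1140 were higher in HF mice (6.88% of the tested genes) and 961 were lower (5.8%). Calls required a Benjamini-Hochberg adjusted p under 0.10 (limma) together with a fold change over 1.5 or under 0.66. The smallest adjusted p was 0.0114 (Sephs2, a selenophosphate synthetase), so 0 genes passed an adjusted p of 0.01. At 0.05, 1093 genes passed, and 4762 had an unadjusted p under 0.05. Groups did not overlap for 35.2% of the tested genes. Most genes named below were picked for a small p, so separate groups among them were likely by that choice. The count depended on single mice. It was 390 without LF 2125, 1084 without LF 2335, 1019 without HF 2292 and 1342 without HF 2290. Without both HF mice that held ovarian transcripts, 625 genes were called (260 higher and 365 lower), of which 440 are among the 2101. With HF 2290 and HF 2292 left out, 1 HF mouse remained, whose spread was taken as that of the LF mice. Calls fell over all genes in that fit, so a call lost from a list below is not by itself a smaller change. Without LF 2124 and LF 2125, the LF mice rich in brown adipocyte transcripts, 4 genes were called, and 126 without LF 2335 and HF 2292, the mice rich in muscle transcripts. Of 36 gene lists described below, 34 held called genes with all 6 mice, 28 without HF 2290 and HF 2292, 18 without LF 2335 and HF 2292, and 0 without LF 2124 and LF 2125 (by limma). No called gene changed direction in any of these fits.

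**Figure D2:**
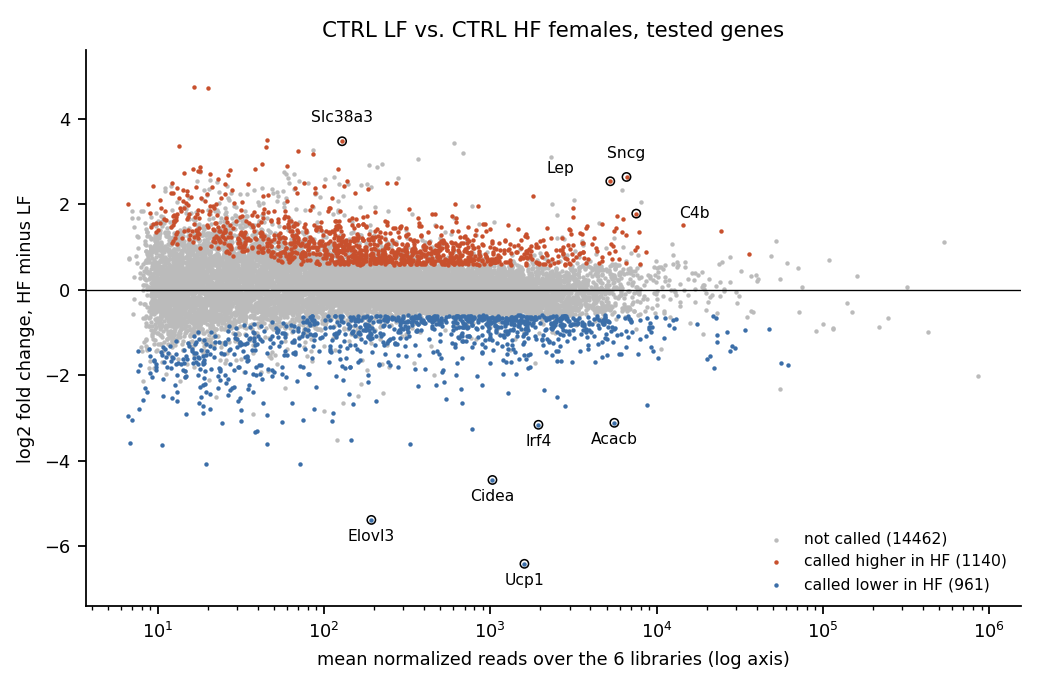
Mean normalized reads over the 6 libraries (x axis, log scale) against the log2 fold change of HF over LF (y axis) for the 16563 tested genes, with genes called higher in orange, lower in blue and the rest in grey. The widest falls are those of Ucp1, Elovl3 and Cidea at -6.41, -5.38 and -4.45, and leptin (Lep) stands at 2.53.

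Among the genes with at least 100 normalized reads in the higher group and no overlap between groups, the 10 widest increases were those of Slc38a3, Gdf9, Tmem108, D430019H16Rik, Sncg, Lep, Folh1, Kctd14, Bcat1 and Cacna1e. Slc38a3, a glutamine transporter, had 7.2, 14.6 and 46.5 reads in LF and 89.9, 364 and 248 in HF mice, a log2 fold change of 3.47 ± 0.72 (SE, n = 3 per group, adjusted p = 0.0362). All HF mice lay above all LF mice, by rule, with HF 2291 highest. Gamma-synuclein (Sncg), a protein abundant in white adipocytes, had 1883, 941 and 2795 and 9049, 17262 and 7613 reads (2.64 ± 0.44, adjusted p = 0.0266). It shared with Lep the lowest level in LF 2125 and the highest in HF 2291. Gdf9, a growth factor secreted by oocytes, had 9.9, 11.2 and 6.6 and 78.6, 23.6 and 386 reads. Bcat1, which transfers the amino group of branched-chain amino acids, had 85.4, 57.2 and 43.8 and 217, 172 and 1056. Kctd14 had 68.4, 109 and 21.2 and 250.2, 140.3 and 853. These genes were highest in HF 2292 and next in HF 2290, the order of the ovarian genes. D430019H16Rik, Folh1 and Cacna1e (a voltage-gated calcium channel subunit) were instead highest in HF 2291, which held few ovarian transcripts, with 209.7, 320.3 and 116, 206, 393 and 101.1 and 135, 191 and 66.5 reads in the 3 HF mice.

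The 10 widest decreases by the same rule were those of Elovl3, Cidea, Acot3, Aspg, Slc25a34, Acot4, Irf4, Acacb, Apoc3 and Rab44. Irf4, a transcription factor that adipocytes induce on fasting, had 3901, 3127 and 3417 reads in LF and 335, 284 and 613 in HF mice, a 8.92-fold lower level (-3.16 ± 0.27, adjusted p = 0.0124). The LF mice lay close together and each HF mouse had far fewer reads. Rab44 showed the same tightness, with 178, 162 and 121 against 21.0, 19.3 and 22.8 reads (-2.80 ± 0.23, adjusted p = 0.0124). Acot3 and Acot4, peroxisomal thioesterases that cut acyl-CoA, had log2 fold changes of -4.07 ± 0.83 and -3.25 ± 0.31. They belong to a family of near-identical neighbours, so that reads of single members are uncertain. Aspg, an asparaginase, had 396, 1203 and 247 and 59.9, 26.8 and 38.3 reads, and the mitochondrial carrier Slc25a34 had 222, 175 and 398 and 36.0, 8.6 and 29.1.

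Genes known to track the enlargement of fat rose. Of 7 fat expansion genes, 4 rose (57.1%, against 6.88% of all genes) and 0 fell. All 7 had a positive log2 fold change, with a median of 1.73 against 0.012 over all tested genes. Leptin (Lep) had 1114, 661 and 2802 reads in LF and 7707, 16051 and 3254 in HF mice, 5.79-fold more (2.53 ± 0.663, adjusted p = 0.0602). The groups did not overlap, but HF 2292 at 3254 was close to LF 2335 at 2802. Npr3, which clears natriuretic peptides, had 2858, 1838 and 2998 and 9679, 12644 and 4693 reads (1.73 ± 0.37, adjusted p = 0.0378). The bone morphogenetic protein Bmp3 stood at 304, 304 and 258 and 1129, 1134 and 607 (1.67 ± 0.25, adjusted p = 0.0206). Mest, an imprinted gene of lipid storage, had 1446, 516 and 256 and 3964, 3355 and 1359 reads (2.18 ± 0.64, adjusted p = 0.0761), and HF 2292 lay below LF 2124. All of them were lower in HF 2292 than in the other HF mice. The list median per mouse, relative to the LF mean, was 1.97 in HF 2290, 2.33 in HF 2291 and 0.99 in HF 2292. Of the 7 genes, 3 were called higher without HF 2290 and HF 2292.

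Among 18 adipokines, the secreted factors of fat, 6 rose and 2 fell (33.3% and 11.1%, against 6.88% and 5.8% of all genes). Neuregulin 4 (Nrg4), a factor that fat sends to the liver, fell from 2611, 2642 and 2402 reads in LF to 1045, 855 and 797 in HF mice (-1.51 ± 0.13, adjusted p = 0.0124). Nampt, which makes the NAD precursor nicotinamide mononucleotide, fell from 1816, 2864 and 2609 to 1356, 1203 and 1333 (-0.88 ± 0.18, adjusted p = 0.0348). The groups were separate for both genes, and the LF mice lay closer together for Nrg4 than for Nampt. Apelin (Apln) and meteorin-like (Metrnl) rose, from 48.6, 51.6 and 43.8 to 134, 200.3 and 91.1 and from 204, 130.2 and 222 to 369, 428 and 561. Adiponectin had a log2 fold change of 0.061 ± 0.33 (adjusted p = 0.924), so that a change of this size could not be told from the spread between mice. Of the adipokines, 4 were called higher and 1 lower without HF 2290 and HF 2292.

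**Figure D3:**
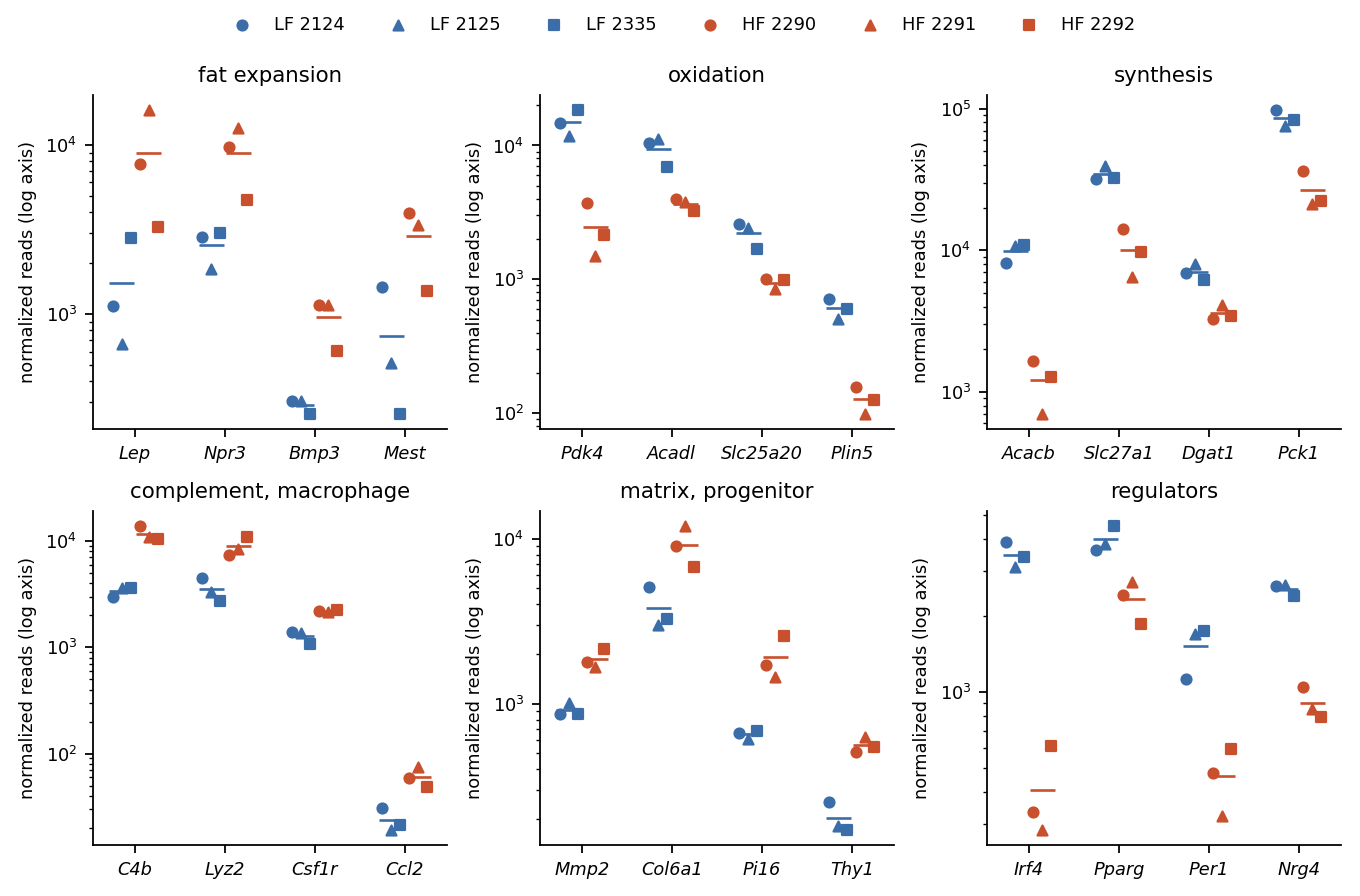
Normalized reads (y axis, log scale) of 24 genes in the 3 LF (blue) and the 3 HF (orange) females, with 1 symbol per mouse and a line at each group mean. The groups are separate for 23 of the 24 genes shown, and Mest overlaps through HF 2292 and LF 2124. All 24 were picked among called genes, which makes separate groups likely, and 35.2% of all tested genes had separate groups.

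Genes listed for fatty acid synthesis from glucose were mostly lower. Of 23 de novo lipogenesis genes, 6 fell (Acacb, Acaca, Elovl6, Mlxipl, Slc25a1 and Tkt) and 2 rose (Mid1ip1 and Scd2), and the median was -0.69. That was 26.1% lower and 8.7% higher, against 5.8% and 6.88% of all genes. Acacb, the acetyl-CoA carboxylase at the mitochondrial surface, had 8128, 10742 and 10918 reads in LF and 1647, 697 and 1282 in HF mice, 8.64-fold fewer (-3.11 ± 0.30, adjusted p = 0.0136). The groups lay far apart, with HF 2291 lowest. Transketolase (Tkt), of the pentose phosphate pathway, fell from 19965, 41056 and 28836 to 5802, 15402 and 8899 (-1.63 ± 0.40, adjusted p = 0.0511). Mlxipl, which encodes the glucose-responsive factor ChREBP, fell from 2142, 1640 and 2597 to 1217, 1374 and 834 (-0.90 ± 0.23, adjusted p = 0.0560). Mid1ip1, an activator of acetyl-CoA carboxylase, went the other way, from 415, 507 and 397 to 647, 933 and 961 (0.93 ± 0.18, adjusted p = 0.0335). HF 2291 was the least lowered of the HF mice over this list, with a median of -0.28 relative to the LF mean against -1.01 in HF 2290 and -0.92 in HF 2292, and LF 2335 was at -0.33. The balance of calls turned without HF 2290 and HF 2292, with 3 genes of the list called higher and 1 lower.

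Genes that take up and store fatty acids were lower. Of 28 genes of fatty acid uptake and triglyceride synthesis, 9 fell (32.1%, against 5.8% of all genes) and 0 rose (median -0.61). The transporter Slc27a1 fell from 31696, 39183 and 32223 reads to 14090, 6503 and 9786 (-1.83 ± 0.29, adjusted p = 0.0252). Pck1, which supplies glycerol for re-esterification in fat, fell from 97655, 74996 and 83210 to 36418, 21306 and 22276 (-1.71 ± 0.32, adjusted p = 0.0306). Dgat1, which adds the last fatty acid of a triglyceride, fell from 6874, 8062 and 6204 to 3278, 4087 and 3408, and the monoacylglycerol acyltransferase Mogat1 from 372, 451 and 409 to 184, 267 and 232. Their adjusted p were 0.0242 and 0.0335. No HF mouse reached the lowest LF mouse for any of these 4 genes. Without HF 2290 and HF 2292 the median of the list was -0.23, and 1 of its genes was called.

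Lipid droplet and lipolysis genes were also lower in larger part, with 10 of 25 fallen, 1 risen (Npr3, given above) and a median of -0.55. Called lower were 40%, against 5.8% of all genes, and called higher 4%, against 6.88%. Perilipin 5 (Plin5), which ties droplets to mitochondria, had 716, 502 and 603 reads in LF and 157, 98.6 and 125 in HF mice (-2.26 ± 0.21, adjusted p = 0.0129). Abhd5, the coactivator of the first lipase, fell from 4043, 3642 and 4026 to 2260, 2087 and 1718, and Fitm2, needed for droplet formation, from 5023, 5095 and 5439 to 3181, 2951 and 2776. Pde3b, through which insulin restrains lipolysis, fell from 10612, 12671 and 9355 to 6508, 3987 and 4313 (-1.16 ± 0.22, adjusted p = 0.0322). The median was -0.36 without HF 2290 and HF 2292, and 2 genes were called higher and 4 lower.

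Genes of fatty acid oxidation were lower. Of 30 tested genes, 18 fell (60.0%, against 5.8% of all genes), 0 rose and 27 had a negative log2 fold change, with a median of -0.80. Pdk4, the kinase that shuts glucose carbon out of the mitochondrion and that fasting induces, had 14729, 11817 and 18366 reads in LF and 3701, 1492 and 2127 in HF mice, 6.48-fold fewer (-2.695 ± 0.33, adjusted p = 0.0176). Slc25a20, which carries acylcarnitines into the mitochondrion, fell from 2592, 2426 and 1693 to 1013, 841 and 984 (-1.22 ± 0.18, adjusted p = 0.0206). The long-chain dehydrogenase Acadl fell from 10352, 11133 and 6873 to 3963, 3777 and 3265 (-1.34 ± 0.20, adjusted p = 0.0219). The mitochondrial thioesterase Acot2 had 669, 588 and 408 and 199, 175 and 189.5 reads, with the same uncertainty as its relatives. The HF mice were alike over this list (medians of -0.77, -0.74 and -0.95 relative to the LF mean), and LF 2335 stood at -0.19, between the groups. The median was -0.74 without HF 2290 and HF 2292 (5 genes called), -0.81 without LF 2335 and HF 2292 (8 called), and -0.58 without LF 2124 and LF 2125, the LF mice rich in brown adipocyte transcripts (0 called).

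Promoters of lowered oxidation genes are shown for the element AGGTCA, which nuclear receptors such as PPARα bind in tandem. It was searched on both strands of the window from 250 bases before to 50 bases after each transcription start (RefSeq, GRCm38.p6). Of 18 lowered oxidation genes, 15 have a promoter in this table and 3 of them (Acadvl, Acadm and Ucp3) hold the element, while 16.3% of all 32851 promoters do. In the sequences below, capitals mark the element, which is read on the opposite strand in Acadm. Acadvl, the very-long-chain acyl-CoA dehydrogenase, lies at chr11:70015379-70015678 (minus strand), and Acadm, the medium-chain enzyme, at chr3:153944594-153944893 (minus strand).
Acadvl: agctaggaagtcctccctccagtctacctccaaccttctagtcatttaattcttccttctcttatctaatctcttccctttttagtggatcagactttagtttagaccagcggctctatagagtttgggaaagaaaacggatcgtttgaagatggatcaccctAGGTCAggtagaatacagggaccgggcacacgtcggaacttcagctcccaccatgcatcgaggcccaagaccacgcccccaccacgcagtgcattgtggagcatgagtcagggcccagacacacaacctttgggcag
Acadm: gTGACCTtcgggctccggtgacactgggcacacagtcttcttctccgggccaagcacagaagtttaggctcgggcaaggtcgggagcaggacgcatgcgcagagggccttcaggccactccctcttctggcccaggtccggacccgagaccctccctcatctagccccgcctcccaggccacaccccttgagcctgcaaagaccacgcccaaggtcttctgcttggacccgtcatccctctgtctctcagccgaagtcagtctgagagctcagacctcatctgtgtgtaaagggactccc
Acadvl had 6785, 8245 and 4732 reads in LF and 2601, 3189 and 2511 in HF mice (log2 fold change -1.22 ± 0.21, adjusted p = 0.0294). Acadm had 9541, 10233 and 6585 and 5813, 5646 and 4120 (-0.750 ± 0.22, adjusted p = 0.0749). Both were named for the motif in their promoter, outside the rule on named genes.

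Genes of the tricarboxylic acid cycle, which burns acetyl-CoA, were lower. All 22 genes had a negative log2 fold change, 12 fell (54.55%, against 5.8% of all genes), and the median was -0.74. Pyruvate carboxylase (Pcx) fell from 35107, 50100 and 34760 reads to 12615, 18634 and 13530 (-1.42 ± 0.25, adjusted p = 0.0301). The pyruvate dehydrogenase subunit Pdha1 fell from 11168, 18840 and 10201 to 5101, 5685 and 4534 (-1.34 ± 0.24, adjusted p = 0.0301). The isocitrate dehydrogenase subunits Idh3b and Idh3g stood at 4419, 5516 and 4116 and 3875, 4602 and 3416 in LF and at 2431, 2915 and 2647 and 2156, 2633 and 1995 in HF mice. LF 2125 was highest for each of these 4 genes. HF 2291 was less lowered (-0.46 relative to the LF mean) than HF 2290 (-0.85) and HF 2292 (-0.90). With HF 2291 as the only HF mouse the median was -0.46 and 0 genes were called, and without LF 2124 and LF 2125 the median was -0.36.

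All 78 tested subunits of the respiratory chain had a negative log2 fold change, 53 of them without overlap between groups (18.2% of all genes). Past the fold limit, 20 fell (25.6%, against 5.8% of all genes). The changes were small, with a median of -0.43. Ndufa1, of complex I, had 1601, 1761 and 1744 reads in LF and 1013, 1166 and 963 in HF mice (-0.70 ± 0.11, adjusted p = 0.0252), and Uqcr10, of complex III, 3282, 3429 and 3669 and 1604, 2224 and 1931. HF 2291 was again nearest to the LF mice, at -0.20 against -0.70 in HF 2290 and -0.41 in HF 2292. Subunits move together, so that 78 genes are not 78 independent observations. With both HF mice rich in ovarian transcripts left out, the median was -0.20 and 1 gene was called.

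Brown and beige adipocyte genes held the steepest decreases. Of 20 tested genes, 7 fell (35%, against 5.8% of all genes) and 0 rose, with a median of -1.003. Ucp1 had 3264, 5957 and 150.0 reads in LF and 235, 9.6 and 0.9 in HF mice (-6.41 ± 1.91, adjusted p = 0.0792). LF 2335, at 150.0, lay below HF 2290, at 235, so the groups overlapped. Elovl3, an elongase of very long fatty acids, had 749, 385 and 10.6 and 6.7, 2.1 and 0.9 reads, and Cidea, a droplet protein of brown adipocytes, 2528, 3045 and 303 and 237, 43.9 and 20. In both, LF 2335 was just above HF 2290 and far below the other LF mice. Cox8b, the cytochrome oxidase subunit of brown fat and muscle, had 1304, 1560 and 635 and 298, 125 and 135 reads (-2.66 ± 0.42, adjusted p = 0.0245). Its partner Cox7a1 had 377, 409 and 131 and 60.7, 82.5 and 44.6 (-2.15 ± 0.45, adjusted p = 0.0365). Ppara, the receptor that drives fat oxidation genes, had 131, 256 and 151 and 88.4, 45 and 62.9, and the potassium channel Kcnk3 1243, 1996 and 1111 and 595, 819.5 and 711. Without LF 2124 and LF 2125, the median moved from -1.003 to -0.34, and 0 genes were called. Omission of HF 2290 and HF 2292 left 1 gene called (median -1.08).

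**Figure D4:**
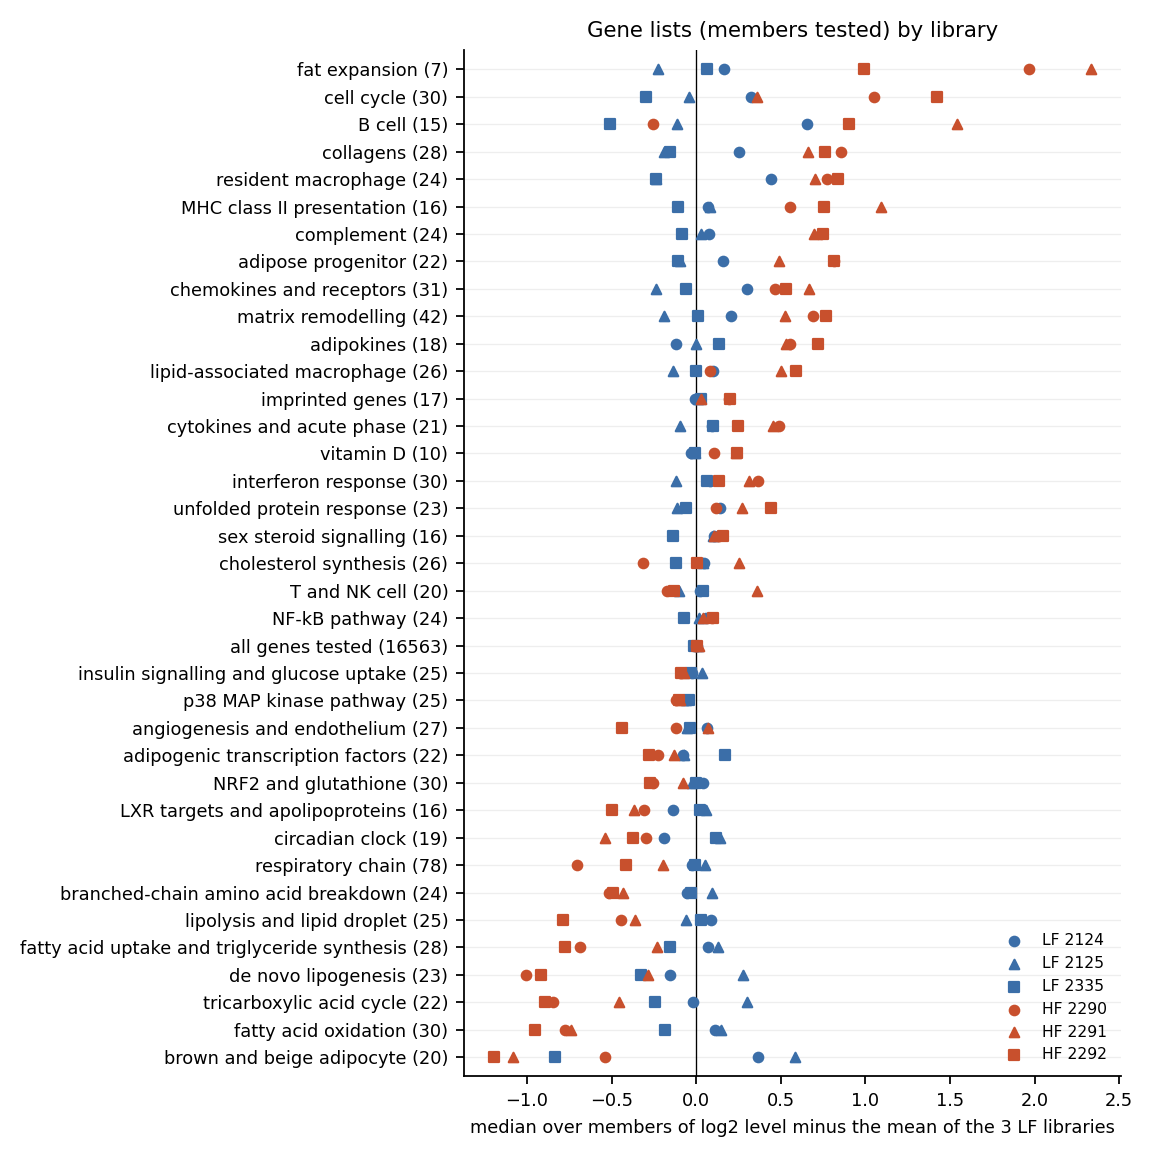
Median over the members of each gene list of the log2 level minus the mean of the 3 LF libraries (x axis), with 1 row per list and 1 symbol per mouse (LF blue, HF orange). The HF mice stand right of all LF mice for fat expansion, collagens, complement and MHC class II genes, and left of them for fatty acid oxidation, the tricarboxylic acid cycle and the respiratory chain, while LF 2335 lies among the HF mice for brown and beige genes.

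Genes that break down branched-chain amino acids, a fuel of adipocytes, were lower by a small amount. Of 24 genes, 23 had a negative log2 fold change, and 4 fell (Bckdhb, Bckdha, Acadsb and Dld), with a median of -0.49. The share called lower was 16.7%, against 5.8% of all genes. Bckdhb and Bckdha, the subunits that commit these amino acids to breakdown, had 2509, 2267 and 2023 and 4538, 5425 and 4810 reads in LF and 1253, 1446 and 1126 and 2379, 3263 and 3122 in HF mice. Slc25a44, the mitochondrial carrier of these amino acids, had 1425, 1363 and 1383 and 947, 923 and 889 reads, a tight and separate pair of groups at a log2 fold change of -0.60 ± 0.094 (adjusted p = 0.0242), just inside the fold limit. No gene of this list was called by limma without HF 2290 and HF 2292 (0 of 24, median -0.43), and without LF 2124 and LF 2125 the median was -0.32.

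Genes of insulin signalling and glucose uptake were divided, with 3 of 25 risen (Grb14, Igfbp5 and Socs3) and 3 fallen (Insr, Pde3b and Trib3), with a median near 0. That was 12% each way, against 6.88% and 5.8% of all genes. The insulin receptor (Insr) fell from 3565, 4173 and 3728 reads to 2725, 2105 and 2476 (-0.65 ± 0.13, adjusted p = 0.0362). Grb14, an adaptor that inhibits this receptor, rose from 138, 127 and 100.9 to 364, 265 and 947 (1.89 ± 0.43, adjusted p = 0.0432), with the highest value in HF 2292. Trib3, an inhibitor of AKT that stress and fasting induce, fell from 425, 394 and 578 to 176, 148 and 149 (-1.54 ± 0.18, adjusted p = 0.0176). Among 22 transcription factors of adipogenesis, 1 fell and 0 rose, 4.5% in all against 12.7% of all genes. That gene was Pparg, the master regulator of adipocytes, with 3647, 3850 and 4518 and 2423, 2711 and 1848 reads (-0.79 ± 0.17, adjusted p = 0.0378). In the fit without HF 2290 and HF 2292, 0 genes of insulin signalling were called higher and 3 lower, and 0 of the transcription factors were called.

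Of 19 circadian clock genes, 7 fell (36.8%, against 5.8% of all genes) and 0 rose, with a median of -0.37. Per1 and Per2, repressors of the clock that also respond to glucocorticoids and feeding, had 1120, 1688 and 1738 and 371, 315 and 413 reads in LF and 479, 322 and 595 and 257, 164 and 164 in HF mice. Their log2 fold changes were -1.72 ± 0.26 and -0.93 ± 0.21 (adjusted p = 0.0211 and 0.0424). Cry1, their partner, had 219, 228 and 246 and 133, 108 and 151 reads, and Npas2, which drives them, 269, 186 and 238 and 112, 136 and 110.2. The E-box CACGTG, to which CLOCK and BMAL1 bind, was searched in the same promoter windows; it reads alike on both strands. It was in 2 of the 5 lowered clock genes with a promoter in the table (Per1 and Cry1) and in 7.15% of all 32851 promoters. Capitals mark it in the promoter of Per1, at chr11:69098699-69098998 (plus strand), and of Cry1, at chr10:85185005-85185304 (minus strand).
Per1: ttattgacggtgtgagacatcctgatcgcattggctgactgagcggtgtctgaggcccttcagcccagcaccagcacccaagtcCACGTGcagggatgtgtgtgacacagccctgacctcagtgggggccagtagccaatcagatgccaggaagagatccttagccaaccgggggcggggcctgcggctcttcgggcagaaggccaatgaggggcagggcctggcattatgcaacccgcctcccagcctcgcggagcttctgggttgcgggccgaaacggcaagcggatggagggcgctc
Cry1: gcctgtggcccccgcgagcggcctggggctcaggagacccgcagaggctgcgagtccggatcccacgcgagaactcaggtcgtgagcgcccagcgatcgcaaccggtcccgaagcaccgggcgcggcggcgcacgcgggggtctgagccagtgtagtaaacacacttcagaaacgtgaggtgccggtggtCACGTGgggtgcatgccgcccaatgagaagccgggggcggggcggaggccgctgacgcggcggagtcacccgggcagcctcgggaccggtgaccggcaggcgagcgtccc
The E-box starts 166 bases before the Per1 start site used and 60 bases before that of Cry1. Of the clock genes, 4 were called lower and 0 higher without HF 2290 and HF 2292.

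Fibroblast and matrix genes moved the other way. Of 22 adipose progenitor genes, 10 rose (45.5%, against 6.88% of all genes) and 0 fell, with a median of 0.67. Pi16, a marker of the earliest progenitors, had 666, 607 and 682 reads in LF and 1706, 1447 and 2580 in HF mice (1.51 ± 0.21, adjusted p = 0.0206). Thy1, a surface protein of fibroblasts, had 252, 182 and 171 and 509, 626 and 548 (1.49 ± 0.18, adjusted p = 0.0176). Cd34 had 2486.1, 1951 and 1727 and 4255, 4010 and 4350, and the semaphorin Sema3c 942, 779 and 945 and 1974, 1600 and 1573. Every HF mouse was above every LF mouse for these 4 genes, and HF 2292 was well above the other HF mice for Pi16. The median of the list without HF 2290 and HF 2292 was 0.49, with 4 genes called.

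Of 28 collagens, 12 rose (42.9%) and 0 fell (median 0.83), and of 42 genes of matrix remodelling, 17 rose (40.5%) and 0 fell (median 0.62). Of all genes, 6.88% rose. Col6a1 and Col6a2, chains of the collagen VI that surrounds adipocytes, had 5072, 3002 and 3278 and 4477, 2254 and 2617 reads in LF and 8982, 11928 and 6778 and 7612, 10814 and 5681 in HF mice (1.29 ± 0.27 and 1.38 ± 0.31, adjusted p = 0.0362 and 0.0424). HF 2291 was highest for both. Col18a1, of basement membranes, had 1256, 1221 and 1334 and 2203, 3222 and 2317, and Col14a1, which binds fibrils, 1144, 915 and 779 and 2922, 1799 and 2335. The gelatinase Mmp2 had 863, 1005 and 868 and 1782, 1676 and 2139 reads (1.03 ± 0.13, adjusted p = 0.0176). Its inhibitor Timp2 had 3468, 3882 and 3667 and 5949, 6122 and 7984, the growth factor Tgfb3 311, 313 and 336 and 689, 567 and 736, and P4ha1, which hydroxylates collagen, 501, 426 and 495 and 828, 723 and 952. Mesothelial cells also make matrix, and the sum of their 4 markers was higher in every HF mouse than in any LF mouse, although Krt19, the marker that was not called, overlapped between groups (506, 990 and 361 in LF and 1135, 689 and 1479 in HF mice). Their part in these values was not tested. The medians without HF 2290 and HF 2292, the HF mice with ovarian transcripts, were 0.66 for collagens and 0.53 for matrix remodelling, and 3 genes of each list were called.

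Macrophage genes rose. Of 24 genes of resident macrophages, 11 rose and 1 fell, 23 had a positive log2 fold change, and the median was 0.83. The shares called were 45.8% and 4.17%, against 6.88% and 5.8% of all genes. Csf1r, the receptor for the factor that keeps macrophages alive, had 1387, 1352 and 1071 reads in LF and 2212, 2156 and 2227 in HF mice (0.80 ± 0.13, adjusted p = 0.0242). Lysozyme (Lyz2), which has a close copy in the mouse genome, had 4529, 3308 and 2743 and 7441, 8412 and 10834 (1.35 ± 0.22, adjusted p = 0.0266). The folate receptor Folr2 had 449, 278 and 281 and 809.6, 599 and 713, the lectin Cd209f 367, 268 and 325 and 749.7, 474 and 742, and Adgre1, which encodes F4/80, 518, 230.1 and 238 and 683, 609.5 and 739 (1.14 ± 0.30, adjusted p = 0.0610). Every HF mouse was above every LF mouse for these 5 genes, and LF 2124 was the highest LF mouse for each. The gene that fell was Mertk, a receptor for the uptake of dying cells (-0.79 ± 0.23, adjusted p = 0.0747). These calls were lost without HF 2290 and HF 2292, when the median was 0.70 and 0 genes were called in either direction by limma, and likewise without LF 2335 and HF 2292 (median 0.72).

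Genes of lipid-associated macrophages were less uniform, with 5 of 26 risen and 3 fallen (median 0.46). These were 19.2% and 11.5%, against 6.88% and 5.8% of all genes. The proteases Ctsk and Ctss had 234, 181 and 203 and 779, 524 and 462 reads in LF and 344, 407 and 342 and 991, 1163 and 1470 in HF mice, and the adaptor Tyrobp 469.5, 321 and 345 and 628, 677 and 829. All 3 rose, as did Cd9 and Cd300lb, by 0.60 and 0.92 on the log2 scale. The genes that fell were Plin2, Fabp5 and Ctsd, which adipocytes also express, with log2 fold changes of -0.87, -0.71 and -0.61. Itgax, which encodes CD11c and marks macrophages of obese fat, had 44.1, 37.0 and 17.3 and 44.9, 92.1 and 49.2 reads (0.93 ± 0.43, adjusted p = 0.200). The lysosomal protein Cd68 had 395, 265 and 220.4 and 451, 394 and 459 (adjusted p = 0.117). Neither passed the test. Of these 26 genes, 1 was called higher and 0 lower without HF 2290 and HF 2292.

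Of 31 chemokines and receptors, 7 rose (22.6%, against 6.88% of all genes) and 0 fell (median 0.63). Ccl2, which recruits monocytes, had 30.6, 19.1 and 21.2 reads in LF and 58.4, 75.0 and 48.3 in HF mice, 2.51-fold more at a low level (1.33 ± 0.29, adjusted p = 0.0410). The eosinophil attractant Ccl24 had 50.4, 40.4 and 50.4 and 111, 152 and 171 (1.58 ± 0.23, adjusted p = 0.0206). Ackr3 and Ackr4, receptors that scavenge chemokines, had 478, 357 and 418 and 18, 23.6 and 14.6 reads in LF and 878, 1066 and 1037 and 43.4, 63.2 and 58.3 in HF mice. Every HF mouse lay above every LF mouse for these 4 genes. Of the 31 genes, 3 were called higher without HF 2290 and HF 2292.

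Genes of antigen presentation by MHC class II rose in 9 of 16 cases (56.25%, against 6.88% of all genes) and fell in 0 (median 0.80). Ciita, the switch of this gene family, had 142, 165 and 110.2 reads in LF and 244, 307 and 251 in HF mice (0.95 ± 0.19, adjusted p = 0.0348). H2-DMa and H2-DMb1, which load peptides, had 252, 208 and 222 and 172, 182 and 141 in LF and 346, 579.5 and 428 and 287, 482 and 315 in HF mice, and the activation marker Cd83 108, 79.7 and 117 and 189, 207 and 234. HF 2291 was highest for Ciita and the H2-DM genes. B cell markers, whose cells also present by class II, summed to 86 to 201 in LF mice and to 102, 304 and 270 in HF mice, and their part in this list was not tested. The list had 6 genes called higher and a median of 1.09 without HF 2290 and HF 2292.

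Complement genes, which fat makes in quantity, rose in 11 of 24 cases (45.8%, against 6.88% of all genes) and fell in 0. The median was 0.68, between 0.66 and 0.81 when any 1 mouse was left out. C4b had 2992, 3586 and 3602 reads in LF and 13784, 10845 and 10445 in HF mice, 3.43-fold more (1.78 ± 0.16, adjusted p = 0.0129), and it has a near-identical copy, C4a. Serping1, the C1 inhibitor, had 3502, 3459 and 3239 and 6646, 7398 and 7513 (1.08 ± 0.12, adjusted p = 0.0176). The C1 proteases C1s1 and C1ra had 4097, 3934 and 3756 and 1206, 1281 and 1196 in LF and 7290, 7287 and 7585 and 1786, 2135 and 2303 in HF mice. The HF mice were within a narrow range for C1s1 and Serping1, and over the list HF 2291 stood at 0.70 relative to the LF mean, against 0.74 and 0.75 in the mice with ovarian transcripts. Calls of higher complement genes numbered 5 without HF 2290 and HF 2292.

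Inflammatory cytokines were scarcely measured. Tnf, Il6 and Il1b did not reach 10 normalized reads in 3 libraries and were not tested. Of 21 tested genes of cytokines and acute phase, 3 rose (Csf1, Il18 and Ptx3) and 2 fell (Cp and Orm1). These were 14.3% and 9.52% of the list, against 6.88% and 5.8% of all genes. Csf1, the macrophage growth factor, had 596, 409 and 605 and 854, 1023 and 1012 reads (0.86 ± 0.17, adjusted p = 0.0356), and Il18 121, 78.6 and 78.3 and 194, 168 and 268 (1.17 ± 0.25, adjusted p = 0.0388). Ceruloplasmin (Cp) fell from 4220, 5816 and 4925 to 3272, 1953 and 2418 (-0.989 ± 0.21, adjusted p = 0.0380). The acute-phase gene Saa3 varied widely, with 105, 295 and 18.6 and 140.1, 485 and 402 reads (1.83 ± 0.93, adjusted p = 0.239). Of 24 genes of the NF-kB pathway, 2 rose (Bcl3 and Nfkbie) and 1 fell (Nfkbia, from 1078, 1329 and 1252 to 667, 737 and 844), 12.5% in all against 12.7% of all genes. Nfkb1 and Rela, its subunits, had log2 fold changes of 0.075 ± 0.098 and -0.11 ± 0.11 (adjusted p = 0.646 and 0.553). When HF 2290 and HF 2292 were left out, 1 cytokine or acute-phase gene was called higher and 1 lower, and 0 genes of the NF-kB pathway were called.

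In the p38 MAP kinase pathway, 2 of 25 genes rose (8%, against 6.88% of all genes) and 3 fell (12%, against 5.8%). The median was -0.12 with all 6 mice and -0.094 without HF 2290 and HF 2292. Gadd45a and Map2k6 rose, from 151, 130.2 and 141 to 284, 419.9 and 466 and from 17.1, 23.6 and 25.2 to 42.7, 103 and 75.6. Gadd45g, of the same stress family as Gadd45a, fell from 926, 987 and 1416 to 243, 142 and 298 (-2.32 ± 0.29, adjusted p = 0.0176), and the kinase Map3k5 from 2212, 1725 and 1691 to 792, 792 and 893 (-1.18 ± 0.13, adjusted p = 0.0176). The phosphatase Dusp4 fell as well (-1.51 ± 0.48, adjusted p = 0.0901). Mapk14, p38α itself, had 1447, 1706 and 1488 and 1430, 1272 and 1336 reads (adjusted p = 0.276). Of 30 interferon-response genes, 3 rose and 1 fell, 13.3% in all and thus close to the 12.7% of all genes (1 rose and 0 fell without HF 2290 and HF 2292). Ifi27l2a had 6321, 8175 and 7525 and 16252, 26268 and 21624 reads (1.52 ± 0.22, adjusted p = 0.0206), and Gbp2 and Bst2 rose less, with log2 fold changes of 0.748 and 0.663, while Rsad2 fell (-0.84). Glutathione and NRF2 genes fell in 5 of 30 cases (Gclc, Gclm, Gsr, Gpx4 and Cat) and rose in 2 (Gstt1 and Sod3). The shares were 16.7% and 6.67%, against 5.8% and 6.88% of all genes. Gclc and Gclm, the subunits that make the precursor of glutathione, had 727, 786 and 757 and 984, 969.8 and 874 reads in LF and 491, 412 and 501 and 577, 495 and 443 in HF mice, and glutathione reductase (Gsr) 911, 865 and 869.6 and 536, 534 and 589. Catalase (Cat), which breaks down hydrogen peroxide, had a log2 fold change of -1.05 ± 0.20 (adjusted p = 0.0335). Of the glutathione and NRF2 genes, 1 was called higher and 3 lower without HF 2290 and HF 2292.

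With all 6 mice, lymphocyte genes did not pass the test. Of 20 T and NK cell genes and 15 B cell genes, 0 were called by limma or by limma-voom, and 1 gene of each list had an unadjusted p under 0.05. The B cell list had a median of 0.97, but its levels per mouse overlapped, at 0.65, -0.11 and -0.51 in LF and -0.25, 1.54 and 0.91 in HF mice relative to the LF mean. With HF 2291, the highest of them, as the only HF mouse, 4 B cell genes were called higher (against 260 of all 16563 genes). Of 30 cell cycle genes, 10 rose (33.3%, against 6.88% of all genes) and 0 fell (median 0.98). Ube2c, which targets cyclins for destruction in mitosis, had 63.0, 60.6 and 70.4 reads in LF and 127, 128 and 156 in HF mice (1.07 ± 0.18, adjusted p = 0.0273), and Rrm2, of nucleotide synthesis, 50.4, 48.3 and 62.4 and 101.1, 87.8 and 129. Ccnb2 and Cdc20 had 110.1, 56.8 and 115 and 95.9, 56.8 and 128 in HF mice, each above all LF mice. Their log2 fold changes were 1.38 ± 0.34 and 1.25 ± 0.33 (adjusted p = 0.053 and 0.0626). HF 2290 and HF 2292, the mice with ovarian transcripts, stood at 1.05 and 1.42 over the list relative to the LF mean, HF 2291 at 0.36 and LF 2124 at 0.33. With HF 2291 as the only HF mouse, 0 cell cycle genes were called.

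Endothelial and angiogenic genes rose in 2 of 27 cases (Apln and Angpt2) and fell in 3 (Epas1, Flt1 and Vegfa), 7.41% and 11.1% against 6.88% and 5.8% of all genes. Without HF 2290 and HF 2292, 2 rose and 0 fell. Epas1, the hypoxia factor HIF-2α, had 8784, 7977 and 6970 and 5220, 5302 and 4513 reads (-0.656 ± 0.14, adjusted p = 0.0406). Among 10 genes of vitamin D handling, 1 rose and 0 fell, 10% in all against 12.7% of all genes. That gene, Lrp2, the uptake receptor for the vitamin D carrier, rose from 157, 173 and 117 to 259, 397 and 617 (1.43 ± 0.31, adjusted p = 0.0397). It was the kidney marker that was not near 0. The vitamin D receptor (Vdr) had 19.8, 51.6 and 35.8 and 62.9, 65.3 and 72.0 reads, separate groups at 0.98 ± 0.35 that did not pass the test (adjusted p = 0.120). Of 16 genes of sex steroid signalling, 2 fell and 0 rose, 12.5% in all and thus close to the 12.7% of all genes. Hsd11b1, which regenerates active glucocorticoid, had 1474, 1712 and 2986 and 546, 688 and 581 reads (-1.70 ± 0.25, adjusted p = 0.0210), and Hsd17b12 6900, 7392 and 4631 and 2382, 3341 and 2083. Esr1, the estrogen receptor, had 1513, 1588 and 1374 and 2076, 1821 and 1909 reads. Its groups were separate and its adjusted p was 0.0756, but the log2 fold change of 0.38 ± 0.11 was inside the fold limit. Genes of vitamin D handling had 2 calls higher without HF 2290 and HF 2292, and sex steroid genes 0.

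Of 16 LXR targets and apolipoproteins, 4 fell (25%, against 5.8% of all genes) and 1 rose (6.25%, against 6.88%). Apoc3, which inhibits lipoprotein lipase, had 120.5, 118 and 159 and 12, 8.6 and 32.8 reads (-3.04 ± 0.46, adjusted p = 0.0219), and Apoc1 1831, 2300 and 1823 and 1036, 1226 and 1337. Mylip, which degrades the LDL receptor, and Apoc4 fell as well, and the sterol transporter Abcg5 rose at a low level, from 3.6, 7.9 and 5.3 to 20.2, 20.4 and 29.1. Of 26 cholesterol synthesis genes, 0 rose and 2 fell (7.69% called, against 12.7% of all genes), namely Insig2 and Tm7sf2, with log2 fold changes of -0.73 and -1.23. The direction of this list depended on the mice, since 4 of its genes were called higher and 0 lower without HF 2290 and HF 2292, and its median of 0.12 ranged from -0.13 to 0.31 when any 1 mouse was left out. In the unfolded protein response, 2 of 23 genes rose (Sdf2l1 and Manf) and 2 fell (Trib3 and Dnajb9), 8.7% each way against 6.88% and 5.8% of all genes, and 1 rose and 1 fell without HF 2290 and HF 2292. Of 17 imprinted genes, Peg10, Mest and Ndn rose and Peg3 fell, 23.5% in all against 12.7% of all genes. Peg10 had 165, 171 and 365 and 519.8, 485 and 594 reads, and Peg3 9504, 12669 and 11113 and 7263, 2172 and 3803, with LF 2335 the highest LF mouse for Peg10 and HF 2291 the lowest mouse for Peg3. With HF 2290 and HF 2292 left out, 2 LXR targets and apolipoproteins were called lower and 0 higher, and 1 imprinted gene was called lower and 0 higher, with a median of 0.029 against 0.40 over all 6 mice.

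The same contrast was available in CTRL sons and in VDD daughters, 6 mice each and none shared with the CTRL daughters. VDD daughters had mothers fed the same diet without vitamin D3. No gene was called for the difference from the sons (0 of 17163, 0%) or from the VDD daughters (0 of 17430, 0%), by limma or by limma-voom, with unadjusted p under 0.05 for 1272 and 1352 genes by limma. In the sons, 745 genes were higher and 487 lower in HF mice by the same thresholds. In the VDD daughters 0 were called by limma or by limma-voom, with an unadjusted p under 0.05 for 1768 genes by limma. These counts came from fits of 12 libraries, whereas the 2101 genes of the CTRL daughters came from a fit of their own 6. In the fit of the 12 female libraries, the CTRL daughters had 315 called genes, 104 higher and 211 lower. Of the 2097 genes called in CTRL daughters by their own fit that could be followed, 88.7% changed in the same direction in the sons and 74.4% in the VDD daughters. The share over all tested genes was not taken, so these shares stand without a background. The log2 change of the 2097 genes was also taken in the direction of the CTRL daughters, so that a gene with the opposite sign counts as negative. The median was 0.99 in CTRL daughters, where the genes were chosen, 0.58 in the sons and 0.29 in the VDD daughters.

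Of the 36 list medians, 30 had the same sign in the sons and 22 in the VDD daughters. In the sons the same sign was seen among others for fat expansion (1.13), collagens (0.95), matrix remodelling (0.59), resident macrophages (0.37), fatty acid oxidation (-0.52), the tricarboxylic acid cycle (-0.43) and the respiratory chain (-0.39). The 6 lists of opposite sign were B cell (-1.46 in sons and 0.97 in CTRL daughters), T and NK cell (-0.56 and 0.079), angiogenesis and endothelium (0.31 and -0.13) and unfolded protein response (-0.089 and 0.19), together with insulin signalling and p38, each with a median near 0 in 1 of the groups. In the VDD daughters fat expansion (0.56) and MHC class II genes (0.83) were positive as well. Fatty acid oxidation (0.32), the tricarboxylic acid cycle (0.27) and brown and beige genes (0.52) were positive there and negative in the CTRL daughters. Among the named genes, the smallest p for the difference between daughters and sons was that of Abcg5 (1.91 ± 0.41 in daughters and -0.98 ± 0.41 in sons, difference 2.89 ± 0.58, adjusted p = 0.526), followed by Tmem108, Acacb, Rab44 and Slc38a3. Acacb changed by -3.09 ± 0.32 in daughters and -1.14 ± 0.32 in sons, a difference of -1.95 ± 0.45 (adjusted p = 0.526). Against the VDD daughters the smallest p were those of Nrg4, Apoc1, Slc25a34, Acacb and Slc25a20. Nrg4 changed by -1.49 ± 0.19 in CTRL and -0.20 ± 0.19 in VDD daughters, a difference of -1.28 ± 0.27 (adjusted p = 0.59), and Slc25a20 by -1.20 ± 0.28 and 0.51 ± 0.28, a difference of -1.71 ± 0.39 (adjusted p = 0.59). None of these differences passed the correction over all genes.

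**Figure D5:**
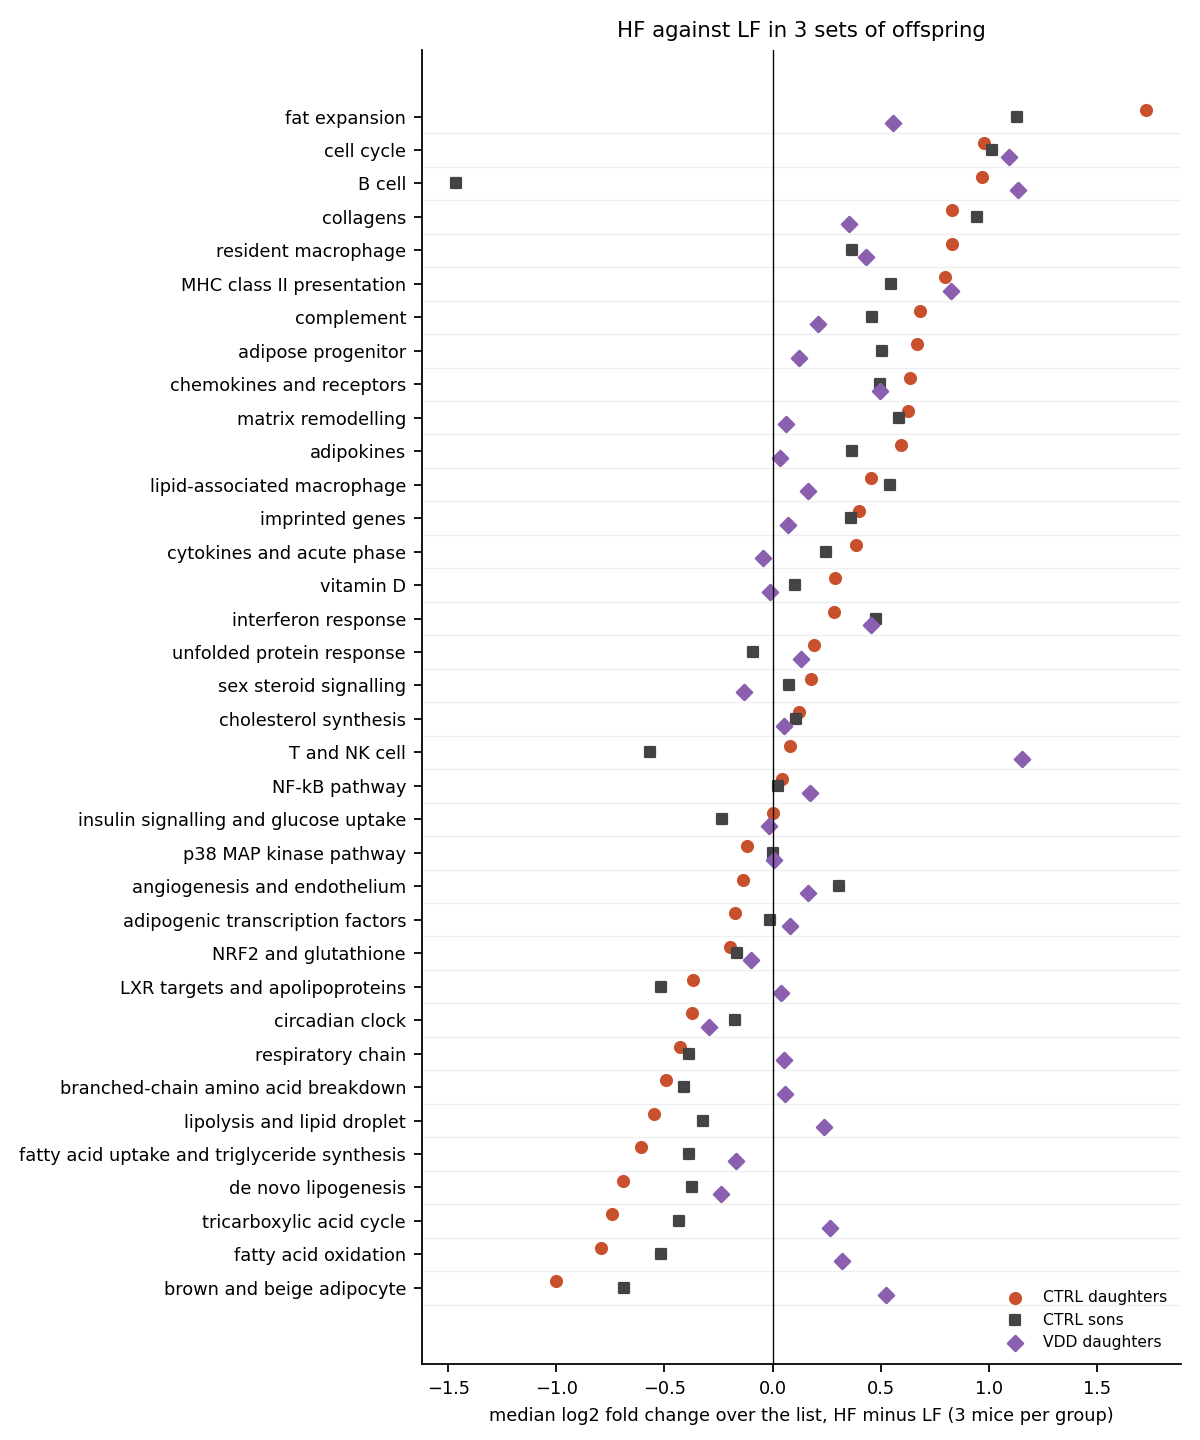
Median log2 fold change of HF over LF (x axis) over the members of 36 gene lists, sorted by CTRL daughters, in CTRL daughters (circles, from their own table), CTRL sons (squares) and VDD daughters (diamonds, both from reads scaled over all 24 libraries), with 3 mice per diet in each. Sons lie on the same side of 0 as CTRL daughters for 30 of the 36 lists, with B cell genes the farthest apart, and VDD daughters for 22, with brown and beige genes, fatty acid oxidation and the tricarboxylic acid cycle among those on the other side.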

How the data were processed

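Retroperitoneal fat RNA of 24 mice had been sequenced as paired-end, poly(A)-selected libraries. Per the labels and the methods, the authors used Sickle for trimming and STAR 2.7.0d for unique alignment to mm10, added loci assembled with Cufflinks 2.2.1 to GENCODE, counted reads with featureCounts 1.6.1 and compared groups with DESeq2. The deposited tables hold log2(normalized reads + 1) for 6 libraries each, and the authors' fold changes, standard errors and p-values, which were not used. Of 8 tables, 4 were used. Undoing the log2 and the size factor gave whole reads for 100% of values within 0.02. Of 56899 entries, 4 were dropped because their date-like names occur more than once, and 2470 of the rest are assembled loci. Depth was 14095335 to 18484346 reads per library, which limits genes of a few reads. Unique alignment removes reads shared by close copies.

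The 6 libraries were grouped by their labels and compared with limma 3.58.1 (lmFit, eBayes with trend) in R 4.3.3, on the deposited log2 values of genes with at least 10 normalized reads in 3 libraries. Calls required a fold above 1.5 or below 0.66 at an adjusted p (Benjamini-Hochberg) under 0.10. The limit of 0.10 was taken because 0.01 was known to give 0 genes, and 0.05 and 0.01 are given as alternatives. Interactions used reads scaled over 24 libraries by the median of ratios. The members, gene lists and tests were chosen with earlier results of these data known. Named genes were the 10 widest increases and decreases without overlap between groups (mean of at least 100 normalized reads, no assembled loci), a set taken from the study's subject (Lep, Adipoq, Ucp1, Adgre1, Cd68, Itgax, Ccl2, Il1b, Il6, Tnf, Saa3, Vdr, Esr1, Nfkb1, Rela, Mapk14), from each list the 4 genes with the smallest p and all called genes where 5 or fewer were called, and from each interaction the 5 named genes with the smallest p. One gene that this rule names is not reported here. Genes named beyond it were chosen after their values were seen: Sephs2, Acadvl, Acadm, Ucp3, the marker genes, and the called members listed by name in lists with more than 5 calls. Alternatives were limma-voom, other scalings, a pseudocount of 10, no filter, library weights, fits over 12 or 24 libraries, and omission of libraries. The procedure was also run on simulated data with independent noise. That simulation held no transcripts of other tissues, so it cannot tell how they affect the calls. Tables and plots were made with Python 3.11.15, pandas 2.3.3 and matplotlib 3.10.9. Promoters are from RefSeq (GRCm38.p6, the same assembly as mm10).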

Additional observations from a re-analysis of the deposited data

How the results depend on the processing

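Of the 2101 genes called in CTRL LF vs. CTRL HF females, limma-voom, upper-quartile scaling, quantile normalization, a pseudocount of 10, no filter on low values and library quality weights gave between 1709 and 2354. The count was 1093 at an adjusted p under 0.05 and 0 at 0.01. With all 12 female libraries in 1 fit it was 315 (33.0% higher in HF mice, against 54.3%), and with 24 libraries 653 (39.4% higher). The cause was not tested. Leaving out 1 mouse gave 390 to 2267 genes, and 338 of the 2101 genes remained called in all 6 of these fits (155 higher and 183 lower). Omissions chosen after the data were seen gave 625 genes without HF 2290 and HF 2292, 4 without LF 2124 and LF 2125, and 126 without LF 2335 and HF 2292. These fits have fewer mice, and the first and the second assume that the lone mouse of a group varies like the others. The interaction with sex gave 0 to 3 genes when 1 mouse was left out, and that with maternal diet 0 in each such fit. Of 143 named genes that were called, 63 were called in every fit without 1 mouse and none changed direction. Among named genes that were not called, the log2 fold change of Adipoq lay between -0.035 (without HF 2291) and 0.164 (without HF 2290) when 1 mouse was left out and was -0.070 without LF 2124 and LF 2125, and that of Rela 0.00974 without HF 2290 and HF 2292. No paired analysis was possible because the table columns carry mouse numbers and not the replicate numbers of the labels. The recovered reads were tested with limma-voom, and no negative binomial model was run. Ovarian and brown fat transcripts lay on unequal sides, and muscle transcripts were high in LF 2335 and HF 2292. With 3 mice per group and such libraries, these values limit each result above.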
